A study of Mus musculus with 9 samples.

Results

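The antiviral interferon-stimulated genes described here are the 55 genes, of 20603 in the count table, whose symbols begin with Ifit, Ifitm or Ifi followed by a digit, with Oas or with Isg, or are among 14 further symbols (Rsad2, Usp18, Irf7, Irf9, Stat2, Ifih1, Zbp1, Bst2, Cmpk2, Xaf1, Parp14, Dhx58, Trim30a and Rtp4). The rule used names and no measured value. Mx1 and Mx2 are not analysed here. After the filter on low counts 52 members were tested, and Ifitm5, Oas1e and Oas1h were not.

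The tissue was conjunctiva, the membrane that lines the eyelids and the front of the eye, from mice on a C57BL/6J background, and its messenger RNA was sequenced. Each of 9 libraries pooled the tissue of 3 mice, and 3 groups had 3 pools each. Challenged Vegfr3iLECko mice were Vegfr3 fl/fl;Prox1CreERT2, so that tamoxifen removes Vegfr3, a growth factor receptor of lymphatic vessels, in cells that use the Prox1 promoter. Challenged control mice were Vegfr3 fl/fl littermates without the Cre. Unchallenged control mice were also Vegfr3 fl/fl. All 3 groups had 5 intraperitoneal tamoxifen injections of 75 mg/kg at week 5 and were immunized with ovalbumin, pertussis toxin and aluminum hydroxide at week 6. The challenge was an ovalbumin eye drop, given once a day for 28 days to the right eye. The labels do not say which eye the unchallenged tissue came from. No group was Vegfr3iLECko without challenge, so the effect of the deletion alone cannot be told apart from its effect under challenge. The labels name replicate experiments but not what a replicate number marks. The p-values therefore measure spread between pools.

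Interferons are signal proteins that cells release after sensing viral nucleic acid or, for interferon gamma, that T cells and natural killer cells release on activation. Type I and type III interferons activate a complex that holds Stat2 and Irf9, which binds the interferon-stimulated response element (ISRE) in the promoters of antiviral genes. Interferon gamma acts through another element, the gamma-activated site (GAS), and many genes respond to both. The products detect foreign RNA and DNA, block viral entry, translation and replication, or feed back on the signal.

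Promoters show the letters that this group of genes shares beyond their names. RefSeq promoter sequences of the build GRCm38.p6 (250 bases before to 50 after the start of the gene) matched 45 of the 55 members by symbol. They were searched on both strands for the ISRE core, which is GAAA, any 2 bases and GAAA again (TTTC, any 2 bases and TTTC on the other strand, overlapping matches counted), and for the GAS letters, which are TTC, any 3 bases and GAA. The ISRE core was present in 24 of the 45 member promoters (53.3%), against 943 of 27025 promoters in the whole table (3.49%). At least 2 cores were present in 11 member promoters (24.4%), against 0.252% of all promoters. The GAS letters were present in 8 member promoters (17.8%), against 8.47% of all. Of the promoters matched in each family, a core was present in 5 of 6 for IFIT, 7 of 10 for HIN-200, 4 of 7 for OAS, 2 of 6 for IFITM and 0 of 4 for the other Ifi genes. The 36 matches began at a median position of -72 relative to the start, and 32 of them began before it. Some are not separate: the windows of Ifit1 and Ifit1bl2, which lie back to back, overlap and share their 2 matches.

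The 6 promoters below are shown because their genes are among the members with the largest differences with challenge and because their cores are arranged differently. All 6 hold a core, but not every member with a large difference does. The promoters of Ifi44 (log2 fold change 3.56 with challenge) and Cmpk2 (2.6) had 0 cores. Capitals mark the ISRE core on either strand, and each sequence reads 5′ to 3′ on the strand of its gene. Isg15 lies on the minus strand of chr4:156200769-156201068, Ifit1 on the plus strand of chr19:34640639-34640938, Oas1a on the minus strand of chr5:120907476-120907775, Rsad2 on the minus strand of chr12:26456403-26456702, Ifi213 on the minus strand of chr1:173599223-173599522 and Ifi214 on the minus strand of chr1:173535908-173536207.
Isg15: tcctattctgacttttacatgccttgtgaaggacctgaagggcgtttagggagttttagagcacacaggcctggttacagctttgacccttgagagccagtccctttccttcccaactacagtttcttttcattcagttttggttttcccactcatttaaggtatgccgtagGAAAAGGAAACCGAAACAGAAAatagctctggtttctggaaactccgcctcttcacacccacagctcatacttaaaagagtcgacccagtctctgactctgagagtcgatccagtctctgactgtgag
Ifit1: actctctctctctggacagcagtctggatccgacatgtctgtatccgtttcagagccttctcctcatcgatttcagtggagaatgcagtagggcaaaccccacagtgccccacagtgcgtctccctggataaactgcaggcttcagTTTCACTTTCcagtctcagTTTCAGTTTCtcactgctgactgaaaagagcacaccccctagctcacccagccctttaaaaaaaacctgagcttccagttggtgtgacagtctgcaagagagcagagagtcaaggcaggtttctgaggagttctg
Oas1a: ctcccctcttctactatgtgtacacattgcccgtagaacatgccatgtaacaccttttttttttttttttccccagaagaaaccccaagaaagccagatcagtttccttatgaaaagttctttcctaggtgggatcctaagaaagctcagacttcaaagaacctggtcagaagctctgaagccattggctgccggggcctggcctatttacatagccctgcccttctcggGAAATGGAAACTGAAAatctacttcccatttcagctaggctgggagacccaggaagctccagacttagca
Rsad2: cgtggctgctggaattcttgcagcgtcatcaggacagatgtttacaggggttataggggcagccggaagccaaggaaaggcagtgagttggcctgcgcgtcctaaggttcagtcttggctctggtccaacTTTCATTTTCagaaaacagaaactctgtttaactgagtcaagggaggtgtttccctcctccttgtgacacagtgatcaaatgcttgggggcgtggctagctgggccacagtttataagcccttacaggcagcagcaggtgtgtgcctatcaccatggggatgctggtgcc
Ifi213: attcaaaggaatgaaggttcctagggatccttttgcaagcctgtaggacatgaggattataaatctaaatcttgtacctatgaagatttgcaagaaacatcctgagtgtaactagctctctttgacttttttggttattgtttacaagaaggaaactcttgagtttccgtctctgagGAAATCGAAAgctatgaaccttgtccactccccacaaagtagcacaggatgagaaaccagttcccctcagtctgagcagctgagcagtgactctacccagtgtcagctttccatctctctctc
Ifi214: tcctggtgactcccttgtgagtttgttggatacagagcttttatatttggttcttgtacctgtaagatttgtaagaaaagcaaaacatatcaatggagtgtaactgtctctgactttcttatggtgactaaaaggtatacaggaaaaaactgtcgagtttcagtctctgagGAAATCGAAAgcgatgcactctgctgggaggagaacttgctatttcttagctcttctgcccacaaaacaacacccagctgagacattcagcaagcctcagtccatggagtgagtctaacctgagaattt
In Isg15 3 overlapping cores formed 1 run, in Oas1a 2 overlapping cores stood next to the start, in Ifit1 2 cores were separate, and in Rsad2 there was 1. The letters between the GAAA repeats varied, and several cores occurred in more than 1 family. GAAATCGAAA was present in 5 member promoters, those of Ifi206, Ifi207, Ifi208, Ifi213 and Ifi214, which are all HIN-200 genes of chromosome 1, and in 0.0518% of all promoters. GAAACTGAAA was present in 9 member promoters, among them Ifit1, Ifit3, Oas1a, Oas1g, Bst2 and Stat2, and in 0.248% of all promoters. These are near copies of one another in places, and a match is a description of letters, not a bound site.

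Total counts were 16490050 to 24746836 per library. The smallest level told from none was set at 3 counts, which is 0.115 to 0.186 CPM (read counts scaled to library size with TMM factors). This limit covers counting error alone, because amplified reads are not separate molecules. The conjunctival keratin Krt4 was at 2400 to 5080 CPM and Krt13 at 2130 to 4200 CPM over the 9 libraries. Flt4, the symbol for Vegfr3, was at 13.0, 5.07 and 5.32 CPM in challenged Vegfr3iLECko pools 1 to 3, against 13.4, 20.3 and 20.1 CPM in challenged controls and 18.5, 26.8 and 13.5 CPM in unchallenged controls. Pool 1 of the knockouts was therefore close to the lowest control.

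Members made up 0.508%, 0.712% and 0.541% of all counts in challenged Vegfr3iLECko pools 1 to 3, against 1.04%, 0.626% and 1.04% in challenged control pools and 0.577%, 0.338% and 0.390% in unchallenged control pools. Taking each member relative to its mean in unchallenged controls, the median over the 52 tested members was 1.28, 2.50 and 1.67-fold in knockout pools 1 to 3, against 3.54, 1.72 and 4.66-fold in challenged controls and 1.23, 0.846 and 0.928-fold in unchallenged controls. Challenged control pools 1 and 3 stood above all others, and pool 2 of the challenged controls was below pool 2 of the knockouts. In bulk tissue more cells of a type and more RNA per cell cannot be told apart.

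**Figure D1:**
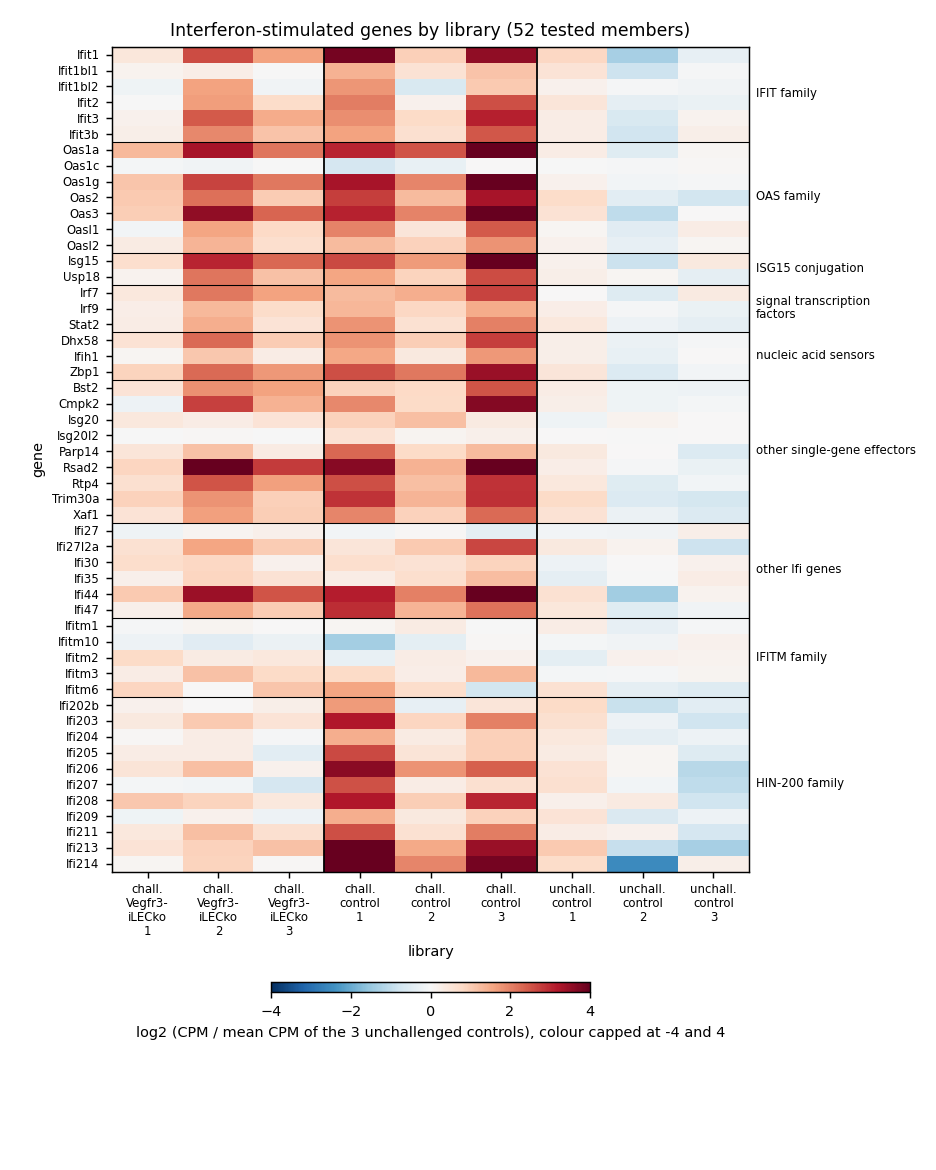
Level of each of the 52 tested members (rows, by role) in the 9 libraries (columns: challenged Vegfr3iLECko, challenged control, unchallenged control, pools 1 to 3 each), as log2 of CPM over the mean of the 3 unchallenged controls, with the colour scale capped at both ends. The antiviral families are darkest in challenged controls 1 and 3 and intermediate in knockout pool 2, the HIN-200 genes at the foot are darkest in challenged control 1 and pale in all knockout pools, and most IFITM genes are pale throughout.

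The first comparison, challenged against unchallenged controls, asked what repeated allergen challenge did to these genes in mice with intact Vegfr3. Nearly all members were higher with challenge: 49 of 52 had a positive log2 fold change, and 48 were positive in every fit that left out 1 library. Among all genes tested, 48.5% were positive and 26.8% were positive in each of those fits. The median log2 fold change of the tested members was 1.79 (range -0.45 to 4.61), against -0.01 over all 15613 genes. In 39 members each challenged pool was above each unchallenged pool, against 7.21% of all genes, and in 0 members was it the other way (8.5% of all genes). The edgeR quasi-likelihood test over all 9 libraries passed 0 members at an adjusted p of 0.05, where 0.0576% of all genes passed as higher and 0.0064% as lower. At an unadjusted p of 0.05 it passed 43 members as higher (6.77% of all genes) and 0 as lower (5.65%).

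With the replicate number as a block, since same-numbered control pools deviated together, 7 members rose (1.18% of all genes): Zbp1, Oas1a, Oas1g, Trim30a, Ifi206, Ifi213 and Ifi214, with blocked adjusted p of 0.0349 to 0.0481. The labels do not state this pairing, so each adjusted p with a block rests on a choice made from the same data. Below, a blocked p is given mainly where it was under 0.05. The log2 fold change and SE beside it are from the fit without a block. With the block in the 2 control groups alone, which leaves few degrees of freedom, 29 members rose (2.23% of all genes) and 0 fell (0.891%). DESeq2 passed 38 of 53 as higher (2.72% of all genes), 26 of them among the 29.

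The ISG15 genes showed the split between pools plainly. Isg15, a ubiquitin-like protein that is attached to other proteins and also secreted, was at 129, 67.0 and 344 CPM in challenged control pools 1 to 3, against 23.2, 11.5 and 27.5 CPM in unchallenged controls. The groups did not overlap, and pool 3 alone held most of the difference. The log2 fold change of Isg15 was 3.12 (SE 0.71, adjusted p = 0.111; 0.0130 with the block in the 2 control groups), and 2.24 to 3.51 when 1 library was left out. Usp18, the protease that removes Isg15 and dampens the type I interferon receptor, was at 41.7, 25.5 and 84.6 CPM, against 16.2, 14.7 and 10.8 CPM (log2 1.86, SE 0.53, adjusted p = 0.173).

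The OAS family makes or resembles enzymes that make 2′-5′ linked oligoadenylates, a second messenger of the antiviral response. In 6 of 7 tested OAS genes the challenged pools were all above the unchallenged ones (7.21% of all genes), and the family's median log2 fold change was 2.67. Oas1a was at 57.0, 39.5 and 122 CPM in challenged controls, against 8.42, 4.94 and 7.24 CPM in unchallenged controls. Even its lowest challenged pool was well clear of the unchallenged ones. With challenge its log2 difference was 3.41 (SE 0.57, adjusted p = 0.0839; 0.0367 with the block over 9 libraries). Oas3 was at 90.9, 43.0 and 187 CPM, against 16.2, 5.36 and 11.0 CPM (log2 3.31, SE 0.73, adjusted p = 0.102; 0.0159 with the block in the 2 control groups). Oas1g was at 17.1, 6.81 and 34.8 CPM, against 1.94, 1.61 and 1.68 CPM (log2 3.49, SE 0.60; blocked adjusted p = 0.0389). Oas1a and Oas1g are close paralogs, and how reads were shared between them in counting is unknown. The exception was Oas1c, at 5.32, 6.90 and 8.50 CPM in challenged controls and 8.37, 8.19 and 8.66 CPM in unchallenged controls (log2 -0.28, SE 0.23, adjusted p = 0.721), although its promoter held 2 ISRE cores. The untested Oas1h had 0, 2 and 0 counts in challenged knockouts, 5, 4 and 1 in challenged controls, and 0 in each unchallenged control. Oas1e had at most 4 counts in any library.

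IFIT proteins bind viral RNA that lacks the host's cap methylation and stop its translation. Their median log2 fold change was 1.83, and in 4 of 6 each challenged pool was above each unchallenged pool (7.21% of all genes). Ifit1 was at 538, 72.6 and 445 CPM in challenged controls, against 67.8, 15.2 and 30.4 CPM in unchallenged controls. Pool 2 of the challenged controls was only just above unchallenged pool 1. The challenge log2 value was 3.22 (SE 0.83, adjusted p = 0.136; 0.0170 with the block in the 2 control groups). Ifit3, which stabilises Ifit1 on RNA in human cells, was at 162, 75.6 and 384 CPM, against 54.9, 29.7 and 49.9 CPM (log2 2.21, SE 0.65, adjusted p = 0.183; 0.0403 with the same block). In the RefSeq annotation Ifit1bl1 spans Ifit1, Ifit1bl2 and Ifit3b in part. The strand of the libraries is unknown, so reads of these overlapping genes cannot be told apart.

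The other effectors were grouped as single genes outside these families. Rsad2 (viperin), which makes a chain-ending nucleotide that halts viral polymerases, had the largest log2 fold change of the members, 4.61 (SE 1.18, adjusted p = 0.137). It was at 37.6, 7.89 and 178 CPM in challenged controls, against 3.66, 2.95 and 2.52 CPM in unchallenged controls. Without challenged control 3 its log2 fold change was 2.89. Its chromosome 12 neighbour Cmpk2, a mitochondrial nucleotide kinase, was at 45.0, 20.3 and 152 CPM, against 14.0, 10.6 and 11.3 CPM. Both genes were highest in pool 3 and lowest in pool 2. Trim30a, a tripartite-motif protein, was at 146, 50.8 and 149 CPM, against 33.3, 13.4 and 12.0 CPM (log2 2.56, SE 0.51, adjusted p = 0.0998; 0.0481 with the block over 9 libraries). Rtp4 was at 106, 41.1 and 133 CPM, against 23.8, 12.8 and 16.6 CPM (log2 2.40, SE 0.53, adjusted p = 0.102; 0.0198 with the block in the 2 control groups). In all 9 members of this role the challenged pools stood above the unchallenged ones (7.21% of all genes).

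The 3 sensors and 3 transcription factors among the members were higher in each challenged control pool than in each unchallenged pool. Outside the rule this held for 5 of 14 sensors and adaptors and 3 of 7 IRF genes (7.21% of all genes). Zbp1, which senses Z-form nucleic acid and can trigger necroptosis, was at 124, 88.5 and 224 CPM in challenged controls, against 28.8, 14.0 and 18.9 CPM in unchallenged controls. It had the lowest adjusted p of any member, 0.0734 without and 0.0349 with the block over 9 libraries (log2 2.82, SE 0.45). Ifih1 (MDA5), a sensor of long double-stranded RNA, was at 157, 70.8 and 181 CPM, against 63.9, 43.8 and 55.2 CPM. Dhx58 (LGP2), its partner, was at 28.3, 16.0 and 54.7 CPM, against 9.58, 6.89 and 7.87 CPM. Irf7, the factor that amplifies type I interferon production, was at 131, 148 and 352 CPM, against 54.8, 38.1 and 69.0 CPM (log2 1.96, SE 0.48, adjusted p = 0.125; 0.0213 with the block in the 2 control groups). Irf9 was at 116, 80.9 and 128 CPM, against 54.9, 44.3 and 38.4 CPM, and Stat2 at 162, 72.5 and 192 CPM, against 63.4, 41.2 and 36.7 CPM. For these 3 factors the log2 fold changes were 1.24 to 1.96.

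The IFITM proteins, which sit in membranes and block fusion of viruses, had the lowest median log2 fold change of the roles, 0.14. Of 5 tested genes 1 was above all unchallenged pools (7.21% of all genes). Ifitm1 was at 1410, 1680 and 1320 CPM in challenged controls, against 1650, 1070 and 1290 CPM in unchallenged controls, and the groups overlapped. Ifitm3 was at 450, 317 and 641 CPM, against 248, 255 and 282 CPM (log2 0.84, SE 0.28, adjusted p = 0.230), and it was the 1 that did not overlap. Ifitm10 was at 2.72, 5.33 and 7.19 CPM, against 6.59, 6.39 and 7.93 CPM (log2 -0.45, SE 0.34). Ifi27, at 66.7, 73.9 and 55.6 CPM in challenged controls and 66.5, 64.8 and 83.9 CPM in unchallenged controls, was the third member with a negative value (log2 -0.13, SE 0.17, adjusted p = 0.860).

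**Figure D2:**
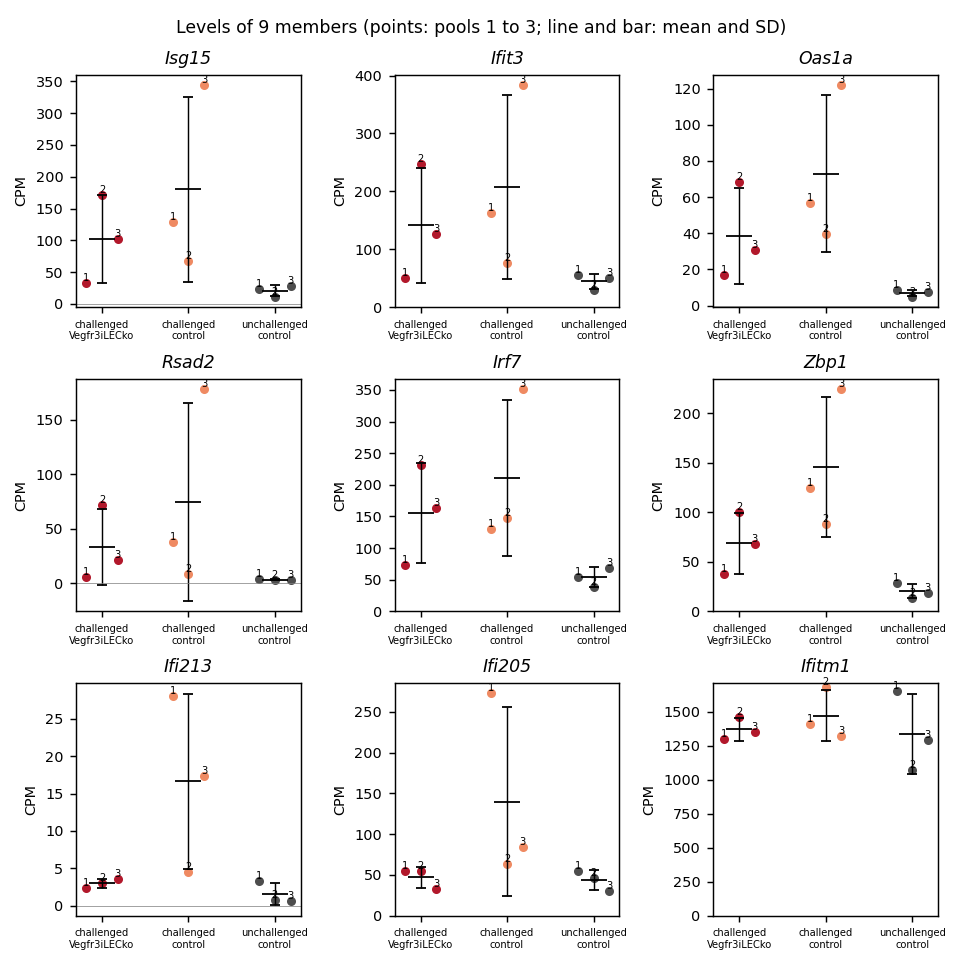
CPM of 9 members in each pool (points numbered by pool), with the mean and SD of each group of 3, for challenged Vegfr3iLECko, challenged control and unchallenged control. Isg15, Ifit3, Oas1a, Rsad2, Irf7 and Zbp1 are highest in challenged control 3, Ifi213 and Ifi205 in challenged control 1, and Ifitm1 overlaps in all 3 groups.

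The HIN-200 family, a cluster of DNA-binding proteins encoded side by side on chromosome 1, followed another order of pools. Ifi213 was at 28.0, 4.53 and 17.3 CPM in challenged controls, against 3.30, 0.842 and 0.630 CPM in unchallenged controls (log2 3.39, SE 0.75, adjusted p = 0.102; 0.0420 with the block over 9 libraries). Ifi214 was at 10.3, 0.852 and 3.14 CPM, against 0.366, 0.0383 and 0.262 CPM (log2 4.43, SE 0.98; 0.0476 with the same block). Ifi206 was at 13.9, 3.94 and 5.93 CPM, against 1.67, 1.19 and 0.525 CPM (log2 2.80, SE 0.59; 0.0373). Ifi204 was at 259, 119 and 182 CPM, against 127, 73.5 and 81.5 CPM (log2 0.99, SE 0.29, adjusted p = 0.187), and its groups overlapped. All 11 family members had a positive value (median 1.95) and 7 had groups apart (7.21% of all genes). Unchallenged control 1 was the highest unchallenged pool for Ifi213, Ifi214, Ifi206 and Ifi204. The members are close paralogs, so the division of reads among them is uncertain.

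Challenged control pools 1 and 3 differed by role. All 11 HIN-200 genes were highest in pool 1, with pool 3 at a median of 0.432 of pool 1 (range 0.264 to 0.893). All 7 OAS genes, all 3 transcription factors, all 3 sensors and both ISG15 genes were highest in pool 3, with median ratios of 1.60, 1.19, 1.80 and 2.35. The IFIT genes were divided, 3 and 3. Outside the HIN-200 family 30 of 41 members were highest in pool 3, 7 in pool 1 and 4 in pool 2.

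**Figure D3:**
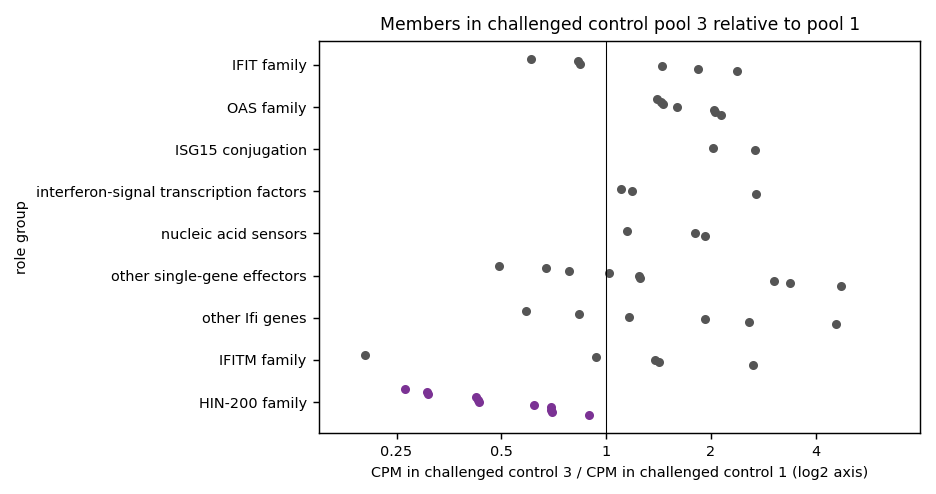
Ratio of CPM in challenged control 3 to CPM in challenged control 1 for each tested member (points, on a log2 axis), by role group. All 11 HIN-200 genes (purple) lie left of 1, all OAS, ISG15, transcription factor and sensor genes lie right of 1, and the IFIT, effector, other Ifi and IFITM groups lie on both sides.

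These 2 pools also differed in other transcripts. Ifng, the gene of interferon gamma, was at 21.0 CPM in challenged control 1 and at 1.61 and 2.28 CPM in pools 2 and 3. It had 3, 17 and 6 counts in challenged knockout pools, 340, 36 and 40 in challenged controls and 0, 2 and 0 in unchallenged controls. Of 21 interferon genes looked up, Ifng and Ifna13 had rows, and Ifna13 did not pass the count filter. Irf8, a factor of macrophages and dendritic cells that interferon gamma induces, was at 122, 21.2 and 29.7 CPM in challenged controls, and Irf1 at 486, 229 and 267 CPM. Socs1 and Socs3, feedback inhibitors of cytokine receptors, were at 146, 8.74 and 24.9 CPM and at 487, 27.7 and 21.3 CPM. For each of these genes pool 1 was the highest, as in the HIN-200 family.

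Markers of other cells also differed between pools and groups. The 10 T cell markers summed to 38.3 to 64.5 CPM in challenged knockouts, 163 to 345 CPM in challenged controls and 15.3 to 28.0 CPM in unchallenged controls, and challenged control 1 was the highest. All 10 had counts in each library, and 5 of the 10 rose with challenge in the test over 9 libraries. The 6 neutrophil markers summed to 330 to 681, 408 to 1160 and 196 to 309 CPM in the same order of groups, and the 9 macrophage and monocyte markers to 568 to 1000, 756 to 1590 and 519 to 1040 CPM. Among challenged controls both sums were highest in pool 1 and lowest in pool 3 (408 and 756 CPM), the pool where most members peaked, and the dendritic cell markers ran the same way, at 56.0, 32.2 and 22.6 CPM. Most of each neutrophil sum was 1 gene, Ltf. Ltf was at 406, 297 and 295 CPM in knockout pools 1 to 3 and 744, 527 and 382 CPM in challenged controls. In unchallenged controls it was at 211, 221 and 181 CPM. Neutrophil sums without Ltf were not computed. Skeletal muscle markers were lower in challenged controls, at 549, 425 and 237 CPM, against 858, 3670 and 1830 CPM in unchallenged controls, and adipocyte markers summed to 5.32, 4.17 and 1.43 CPM, against 38.1, 61.3 and 4.78 CPM. The 9 epithelial markers were highest in pool 2 of the knockouts (35300 CPM), pool 3 of the challenged controls (31100 CPM) and pool 3 of the unchallenged controls (29100 CPM). The 8 markers of plasmacytoid dendritic cells, a main source of type I interferon, summed to 171 to 183, 138 to 198 and 143 to 203 CPM. Most of each sum was Tcf4, Cox6a2 and the member Bst2, so similar sums do not show similar amounts of these cells. Mean Cox6a2 was 36.5 CPM in knockouts, 7.85 CPM in challenged controls and 43.2 CPM in unchallenged controls. The skeletal muscle markers were likewise lowest in challenged controls. Ly6d was at 19.3 CPM in knockout pool 1 and at 0.826 and 0.457 CPM in knockout pools 2 and 3. The list's defining marker Siglech was at 0.457 to 1.17, 0.285 to 2.04 and 1.21 to 1.91 CPM in the same order of groups. The part of these cells in the members' levels was not tested.

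**Figure D4:**
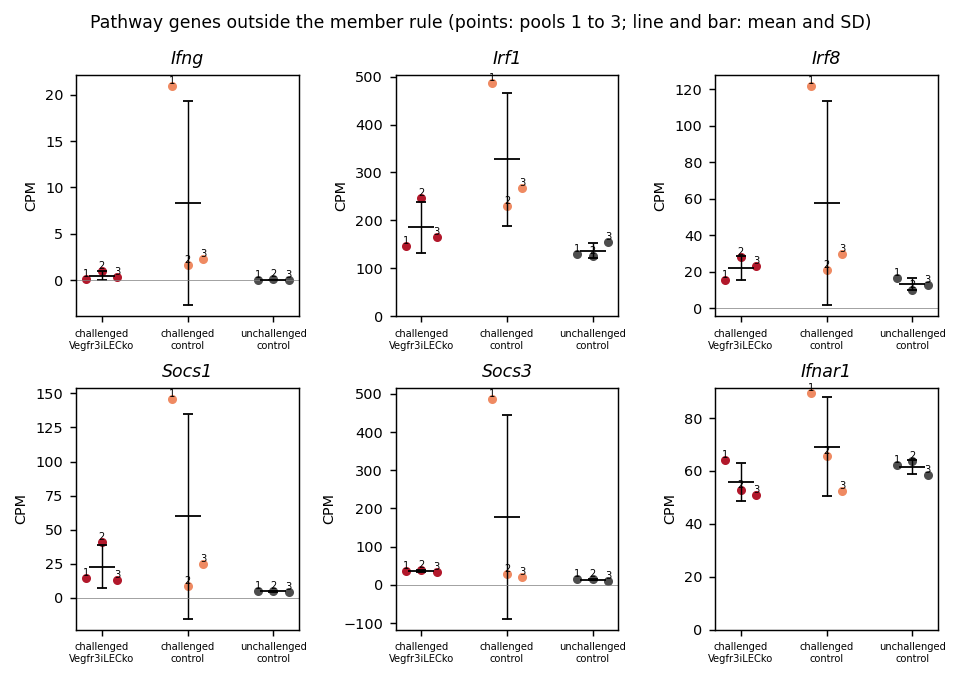
CPM of Ifng, Irf1, Irf8, Socs1, Socs3 and Ifnar1 in each pool (points numbered by pool), with the mean and SD of each group of 3, for challenged Vegfr3iLECko, challenged control and unchallenged control. All 6 genes are highest in challenged control 1, where Ifng reached 21.0 CPM and Ifnar1 89.4 CPM.

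The second comparison, challenged Vegfr3iLECko against challenged controls, asked whether loss of Vegfr3 in lymphatic endothelium changed the response. The test over 9 libraries passed 0 members, and 0.0% of all genes passed in either direction. The members leaned to lower levels in the knockouts: 48 of 52 had a negative log2 fold change (49.6% of all genes) and 4 a positive one (50.4%), with a median of -0.76 (range -4.01 to 0.44), against 0.00 over all genes. At an unadjusted p of 0.05, 15 were lower (4.53% of all genes) and 0 higher (3.95%). With the replicate block over 9 libraries 0 members passed as higher (0.0384% of all genes) or lower (0.102%). DESeq2 passed 0 members as higher (0.854% of all genes) and 4 as lower (0.724%), namely Ifi206, Ifi208, Ifi213 and Ifi214. The size of the lean varied with single pools, but the sign of the median held in each fit that left out 1 library. The members' median was -0.36 without challenged control 3 and -0.49 without knockout pool 1, and -1.17 without knockout pool 2. A negative sign held in every fit that left out 1 library for 30 members, against 28.7% of all genes.

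Most members with separated pools were HIN-200 genes. In 7 of 11 every knockout pool was below every challenged control pool, where 6.24% of all genes were so, and the family's median log2 fold change was -1.63. Among the other 41 members 2 were so, Ifit1bl1 and Isg20l2. Ifi214 was at 0.234, 0.413 and 0.229 CPM in challenged knockouts, against 10.3, 0.852 and 3.14 CPM in challenged controls (log2 -4.01, SE 0.95, adjusted p = 0.338; DESeq2 0.00151). Ifi213 was at 2.34, 3.01 and 3.60 CPM, against 28.0, 4.53 and 17.3 CPM (log2 -2.48, SE 0.72, adjusted p = 0.380; DESeq2 0.0164). Ifi206 was at 1.63, 2.60 and 1.26 CPM, against 13.9, 3.94 and 5.93 CPM (log2 -2.11, SE 0.57, adjusted p = 0.364; DESeq2 0.0152). In each of these genes the knockout pools were close together, and challenged control 2 was the nearest to them. In Ifi204 and Ifi209 the gap was small. Knockout pool 2 was at 115 and 79.4 CPM, and challenged control 2 at 119 and 92.5 CPM. Relative to unchallenged controls, the family's median was 1.84-fold in knockout pool 2, above the 1.55-fold of challenged control 2. Ifi205 was at 54.3, 54.3 and 32.5 CPM, against 273, 62.7 and 84.1 CPM (log2 -1.57, SE 0.50, adjusted p = 0.431), and -0.64 without challenged control 1. Ifi202b, at 199, 175 and 204 CPM against 573, 140 and 243 CPM, had a log2 fold change of -0.73, which was 0.01 without challenged control 1.

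The T cell markers followed the same separation: each of the 10 was lower in every knockout pool than in every challenged control pool, with a median log2 fold change of -2.04 and adjusted p of 0.286 to 0.338, and DESeq2 passed all 10 as lower (0.724% of all genes). Ifng, at 0.117, 1.0 and 0.343 CPM in knockouts, was also below each challenged control. Skeletal muscle markers, which summed to 1940, 1550 and 2460 CPM in knockouts and 549, 425 and 237 CPM in challenged controls, went the other way. Their part in the HIN-200 values was not tested.

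In the remaining families the knockout and challenged control pools overlapped, other than in Ifit1bl1, Isg20l2 and Ifitm2. Over all 52 tested members knockout pool 1 was below every challenged control in 40, pool 3 in 22 and pool 2 in 11. The matching shares of all genes for a single pool were not computed, so these counts cannot be judged as high or low. Isg15 was at 33.0, 171 and 102 CPM in challenged knockouts, against 129, 67.0 and 344 CPM in challenged controls (log2 -0.82, SE 0.66, adjusted p = 0.758). Knockout pool 1 was below every challenged control, and knockout pool 2 above 2 of them. Its log2 fold change was 0.06 without challenged control 3. Oas1a was at 16.9, 68.1 and 30.5 CPM, against 57.0, 39.5 and 122 CPM (log2 -0.92, SE 0.52, adjusted p = 0.673). Ifit1 was at 52.0, 233 and 115 CPM, against 538, 72.6 and 445 CPM (log2 -1.40, SE 0.77, adjusted p = 0.662). Rsad2 was at 5.53, 72.0 and 21.3 CPM, against 37.6, 7.89 and 178 CPM (log2 -1.18, SE 1.01, adjusted p = 0.767), and its log2 fold change was 0.54 without challenged control 3. Irf7 was at 72.6, 231 and 163 CPM, against 131, 148 and 352 CPM (log2 -0.44, SE 0.47, adjusted p = 0.801). Zbp1 was at 38.0, 99.9 and 68.3 CPM, against 124, 88.5 and 224 CPM (log2 -1.08, SE 0.42, adjusted p = 0.532). Trim30a was at 37.3, 68.4 and 37.7 CPM, against 146, 50.8 and 149 CPM (log2 -1.27, SE 0.49, adjusted p = 0.520). None of these 7 differences passed the test.

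Knockout pools differed among themselves as the challenged controls did. Pool 2 was the highest knockout pool for 41 of 52 members and pool 1 the lowest for 35. The ratio of pool 2 to pool 1 had a median of 4.57 for the ISG15 genes, 3.33 for IFIT and 3.01 for OAS, and 1.26 for HIN-200. Pool 1 was the knockout pool with the highest Flt4, the highest neutrophil sum (681 CPM) and the highest mitochondrial share of counts (3.08%, against 1.24% and 1.48% in pools 2 and 3).

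Members with a positive value were few. Ifitm2 was at 132, 98.7 and 105 CPM in challenged knockouts, against 64.1, 95.3 and 88.1 CPM in challenged controls, the 1 member with each knockout pool above each control (6.7% of all genes; log2 0.44, SE 0.21, adjusted p = 0.618). Oas1c was at 8.02, 7.67 and 8.29 CPM, against 5.32, 6.90 and 8.50 CPM, and Ifi27 at 64.2, 76.6 and 81.9 CPM, against 66.7, 73.9 and 55.6 CPM. Ifitm10, the other member with a positive value, was at 5.99, 5.13 and 5.89 CPM, against 2.72, 5.33 and 7.19 CPM (log2 0.16, SE 0.34), and -0.14 on the log2 scale without challenged control 1.

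**Figure D5:**
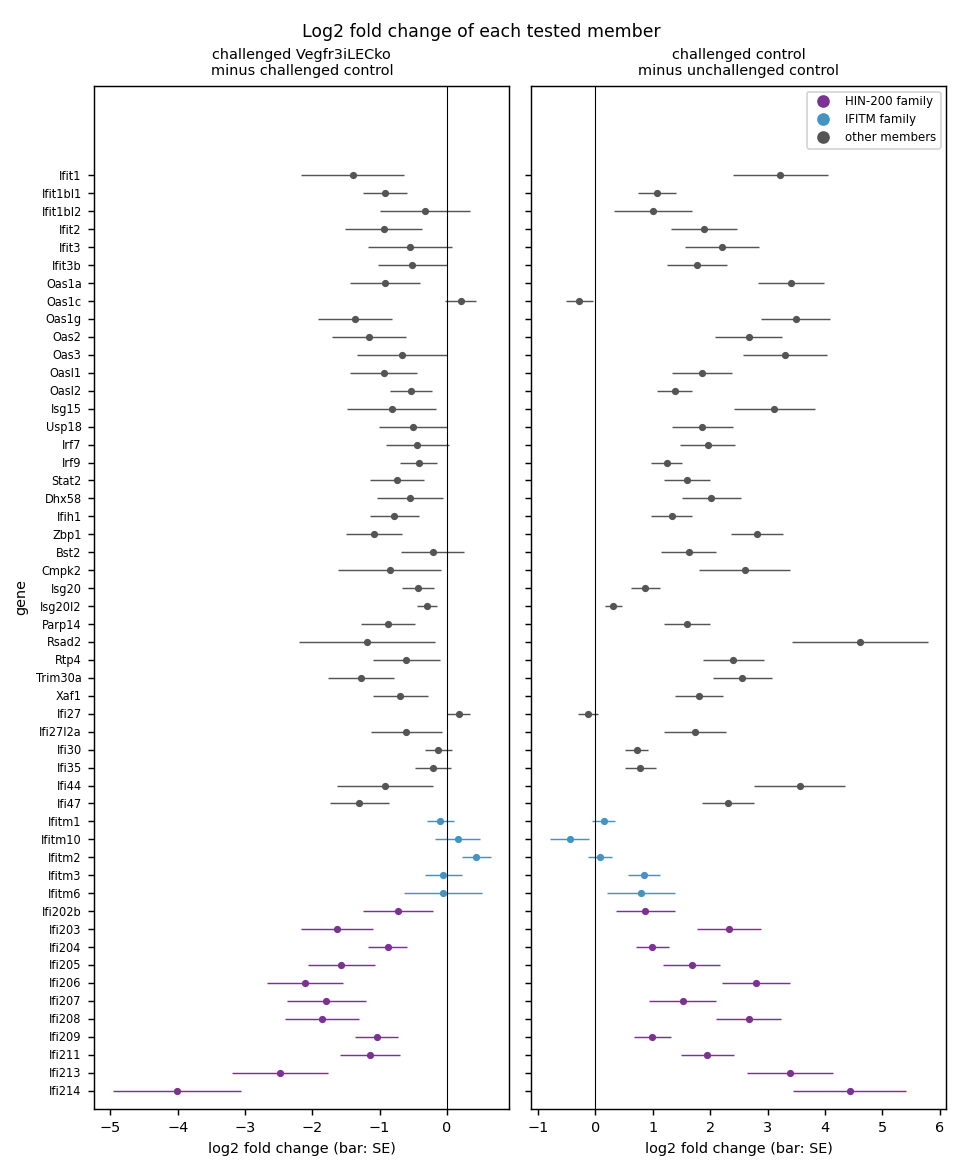
Log2 fold change (points) with its SE (bars) for each tested member, with challenged Vegfr3iLECko minus challenged control on the left and challenged control minus unchallenged control on the right. The HIN-200 genes (purple) have the most negative values on the left, with Ifi214 at -4.01, and the IFITM genes (blue) lie between -0.45 and 0.84 in the 2 panels. Both panels use the challenged control pools, so their values are not independent.

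The third comparison set challenged Vegfr3iLECko against unchallenged controls, groups that differ in both challenge and genotype. The test over 9 libraries passed 0 members and 0.0% of all genes, with an adjusted p of 0.999 for each member. At an unadjusted p of 0.05, 25 members were higher (1.25% of all genes) and 0 lower (1.65%). In 22 each knockout pool was above each unchallenged pool (3.26% of all genes), and in 1, Ifitm10, each was below (3.33%). DESeq2 passed 3 as higher (0.0636% of all genes): Oas1a (adjusted p = 0.00304), Oas3 (0.0282) and Zbp1 (0.0495). It passed 0 as lower (0.0254% of all genes). A positive log2 fold change was found in 48 of 52 members (50.7% of all genes), and in each fit that left out 1 library in 39 (26.7%). The members' median log2 fold change was 0.84, and 0.56 without knockout pool 2.

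The roles differed in how many knockout pools stood clear of the unchallenged ones. In the OAS family it was so for 5 of 7 tested genes, with a median log2 fold change of 1.52. Among the other effectors it was so for 5 of 9, with a median of 1.29. Over all genes the share was 3.26%. Oas1a was at 16.9, 68.1 and 30.5 CPM in challenged knockouts, against 8.42, 4.94 and 7.24 CPM in unchallenged controls (log2 2.49, SE 0.55). Oas3 was at 21.4, 126 and 54.8 CPM, against 16.2, 5.36 and 11.0 CPM (log2 2.64, SE 0.71). Ifi44, an interferon-induced protein, was at 9.96, 51.7 and 27.4 CPM, against 7.27, 1.84 and 5.25 CPM (log2 2.64, SE 0.77). Isg15 was at 33.0, 171 and 102 CPM, against 23.2, 11.5 and 27.5 CPM (log2 2.30, SE 0.69). In each, knockout pool 1 was the nearest to the unchallenged pools. In the IFIT family 0 of 6 stood clear, although the median was 1.1. In the HIN-200 family 2 of 11, Ifi208 and Ifi211, stood clear, and the median was 0.42. Ifi205 was at 54.3, 54.3 and 32.5 CPM, against 54.4, 46.3 and 30.7 CPM (log2 0.10, SE 0.49), and Ifi207 at 31.6, 30.7 and 21.0 CPM, against 52.5, 30.9 and 16.6 CPM (log2 -0.26, SE 0.58). Whether the families differ from one another in this was not tested.

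Genes of the pathway that the rule left out were followed in lists of receptors, kinases, transcription factors, sensors and other induced genes. In the tests over 9 libraries 0 of them passed in any comparison. With challenge DESeq2 passed 0 of 6 receptor genes, 2 of 14 sensors and adaptors (Sting1 and Trim25) and 2 of 7 IRF genes (Irf1 and Irf8) as higher, where 2.72% of all genes passed. The 6 receptor genes showed a median log2 fold change of 0.20 with challenge and -0.30 with genotype. Ifngr1, a receptor chain for interferon gamma, was at 209, 227 and 205 CPM in challenged knockouts, 319, 234 and 239 CPM in challenged controls and 166, 202 and 187 CPM in unchallenged controls. Ifnar1, a receptor chain for type I interferon, was at 64.1, 52.8 and 50.8 CPM, 89.4, 65.6 and 52.6 CPM, and 62.1, 63.8 and 58.5 CPM in the same groups. Samhd1, an enzyme that depletes the nucleotides retroviruses need, was at 272, 571 and 458 CPM, 857, 422 and 805 CPM, and 284, 207 and 263 CPM (challenge log2 1.47, SE 0.33, adjusted p = 0.105; 0.0190 with the block in the 2 control groups).

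Another 38 interferon-stimulated genes outside the rule had rows that passed the filter. With challenge 38 of 38 were positive (48.5% of all genes), 24 of them with groups apart (7.21%), the median log2 fold change was 0.98, and DESeq2 passed 23 as higher (2.72%). With genotype 38 of 38 were negative (49.6%), 5 with groups apart (6.24%), the median was -0.56, and DESeq2 passed 4 as lower (0.724%), namely Herc6, Slfn1, Slfn8 and Epsti1. Epsti1 rose in the fit with the block over 9 libraries. It was at 10.5, 8.85 and 8.75 CPM in challenged knockouts, 14.7, 15.4 and 17.8 CPM in challenged controls and 8.27, 6.62 and 8.03 CPM in unchallenged controls (challenge log2 1.06, SE 0.20, adjusted p = 0.0949; 0.0379 with the block). Unlike most members its challenged control pools were close together. Mndal, a further HIN-200 gene whose symbol the rule did not match, was at 28.8, 50.8 and 36.7 CPM, 131, 36.8 and 100 CPM, and 28.8, 14.3 and 14.0 CPM in the same groups, and was highest in challenged control 1 as the 11 HIN-200 members were.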

How the data were processed

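The authors deposited unnormalized read counts for each gene symbol, in whole numbers. HISAT2, Bowtie2, DESeq2 and the genome build mm39 are named per the submitters' processing notes. Not given in the sources used here are their versions, the counting program and the library strand. Promoters come from RefSeq on another build, GRCm38.p6, and were matched by symbol.

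Counts were fitted with edgeR 4.0.16 (R 4.3.3; quasi-likelihood test, TMM scaling, filterByExpr on the 3 groups), with all 9 libraries in 1 fit, two-sided, and Benjamini-Hochberg adjustment over all 15613 genes tested at a threshold of 0.05. DESeq2 1.42.0, other scaling, no filter, leaving out each library and a replicate block were alternatives. Log2 fold changes, SEs and CPM were computed from these counts. The biological coefficient of variation was 31.7%. The replicate numbers were taken to pair the control groups. Deviations of same-numbered challenged and unchallenged pools correlated at 0.458, 0.245 and 0.488 across genes, and those of differently numbered pools at -0.454 to 0.0863. This pairing comes from the data and not from the labels, and the knockouts did not show it (0.339, -0.147 and 0.334 with the challenged controls). The block over 9 libraries applied the numbers to the knockouts as well. No library was a copy of another. The code was tested on simulated data.

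The members and gene lists were chosen with earlier results of these data known. Genes named are up to 3 per role with the highest mean CPM, the largest differences per comparison, and members that passed an alternative, and others, such as Oas1a, Ifi205, Cmpk2, Irf8 and Mndal, were chosen after their values were seen. Some genes of the pathway are not reported here.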

Additional observations from a re-analysis of the deposited data

How the results depend on the processing

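The members' median log2 fold changes kept their sign under all alternatives run: when 1 library was left out they ranged from 1.39 to 2.11 for challenge in controls, from -1.17 to -0.36 for genotype under challenge and from 0.56 to 1.09 for challenged knockouts against unchallenged controls. The scaling by DESeq2's size factors within edgeR turned the sign of 0 members. Counts of calls did depend on the processing. For challenge in controls 10 genes passed in the test over 9 libraries, against 20 without a count filter, 267 with the replicate block over 9 libraries, 1 with only the 2 control groups, 476 with the replicate block in those groups and 770 with DESeq2. Members that passed numbered 0, against 1, 7, 0, 29 and 38 under the same alternatives. When 1 library was left out, 0 to 121 genes and 0 to 5 members passed, with 121 genes and 3 members without unchallenged control 1, 35 genes and 5 members without challenged control 2, 1 gene without challenged control 3, 6 and 5 genes without challenged knockout 1 and 3, and 0 without unchallenged control 2 or 3. For genotype under challenge 0 genes passed, against 22 with the replicate block over 9 libraries and 242 with DESeq2, and 4 members passed with DESeq2. For challenged knockouts against unchallenged controls 14 genes and 3 members passed with DESeq2. In these last 2 comparisons 0 genes and 0 members passed in any fit that left out 1 library. The replicate block changed the call of no other member. The causes of these differences were not tested, beyond the residual degrees of freedom that the block and the smaller fits take up. Members with few counts, such as Ifi214 and the untested Oas1e, Oas1h and Ifitm5, are limited by depth.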
